A study of Homo sapiens with 8 samples.

Results

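FOS, FOSB, FOSL1, FOSL2, JUN, JUNB, JUND, ATF3, EGR1 and EGR3 are transcription factor genes of the AP-1 and EGR families, and they were followed here in thyroid cells in which the level of miR-375 was raised or blocked. They were chosen by name, as every non-control probe that the array annotation assigns to one of these 10 genes. That gave 13 probes of 50599 on the array, 4 for ATF3 and 1 for each of the other genes, among 36337 gene names. Because the genes were picked with earlier results of these arrays known, their differences are given below as a description, without a test.

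RNA was measured on 8 single-colour Agilent SurePrint G3 arrays, 2 per group, with biological replicates according to the methods. ORI is Nthy-ori 3-1, a line of immortalized follicular cells from normal thyroid. Its groups were a control (CTL) and cells transfected with premiR-375, a synthetic precursor that supplies the miRNA, at 5 nM according to the labels. TT is a line from a medullary thyroid carcinoma, a tumour of the calcitonin-producing C cells. Its groups were CTL and cells given AntagomiR-375, an antisense oligonucleotide that inhibits it, at 20 nM. The methods state higher concentrations than the labels for both. Labels name the control reagent of neither line. All cells were transfected by lipofection for 48 h, so the replicates are transient transfections of 1 established line each. Arrays of 1 replicate number and 1 line lay on the same slide. The labels give an RNA integrity number of 8 on both TT CTL arrays and 9 on the 6 others, so that RNA integrity and treatment cannot be told apart in TT cells.

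AP-1 is a dimer of proteins that share a basic leucine zipper. FOS proteins must pair with a JUN protein to bind DNA, JUN proteins can also pair among themselves, and ATF3 pairs with JUN proteins or with itself. Together they bind the sites known as TRE and CRE. EGR1 and EGR3 are zinc finger factors that bind GC-rich sites and are held in check by the co-repressors NAB1 and NAB2. Most of these genes are immediate early genes, transcribed within minutes of a growth factor, calcium or stress signal without new protein synthesis, through SRF and ELK factors at CArG boxes and through CREB at CRE sites. Their RNA is short-lived, so a level taken days after a transfection is a standing level and not the first burst.

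The sequence that premiR-375 supplies and AntagomiR-375 blocks is shown first, from RefSeq on GRCh38.p14, with the seed (bases 2 to 8) in capitals. Below it stand the 250 bases before the annotated start of 4 genes. FOS and FOSB are shown because they were the FOS family genes with the widest difference in TT cells, EGR1 because it did not follow them there, and JUND because it alone held the CRE. Capitals mark a match to one of 5 searched motifs, all taken on both strands.
hsa-miR-375-3p, chr2:219001648-219001669, minus strand: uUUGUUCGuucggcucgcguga
FOS, chr14:75278578-75278827, plus strand: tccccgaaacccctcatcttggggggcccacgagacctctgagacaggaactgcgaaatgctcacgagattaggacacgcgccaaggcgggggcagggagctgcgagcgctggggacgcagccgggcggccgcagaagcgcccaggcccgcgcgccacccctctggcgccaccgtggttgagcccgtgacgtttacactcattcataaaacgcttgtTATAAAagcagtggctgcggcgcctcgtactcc
FOSB, chr19:45467746-45467995, plus strand: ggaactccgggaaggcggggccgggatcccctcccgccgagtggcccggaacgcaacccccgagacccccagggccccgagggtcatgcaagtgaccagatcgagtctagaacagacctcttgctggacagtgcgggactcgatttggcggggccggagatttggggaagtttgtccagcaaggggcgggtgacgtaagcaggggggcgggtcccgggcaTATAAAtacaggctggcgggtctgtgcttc
EGR1, chr5:138465229-138465478, plus strand: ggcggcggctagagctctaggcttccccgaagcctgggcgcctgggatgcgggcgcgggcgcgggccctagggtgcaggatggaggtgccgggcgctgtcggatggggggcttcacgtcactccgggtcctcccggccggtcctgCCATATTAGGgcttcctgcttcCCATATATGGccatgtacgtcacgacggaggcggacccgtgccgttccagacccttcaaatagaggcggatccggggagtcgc
JUND, chr19:18281623-18281872, minus strand: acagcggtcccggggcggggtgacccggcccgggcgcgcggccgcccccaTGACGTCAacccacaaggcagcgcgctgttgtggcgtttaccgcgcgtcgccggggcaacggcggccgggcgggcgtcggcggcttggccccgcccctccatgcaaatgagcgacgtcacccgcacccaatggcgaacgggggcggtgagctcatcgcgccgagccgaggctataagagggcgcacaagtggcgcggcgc

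The motifs were TGACTCA (TRE), TGACGTCA (CRE), the CArG box, GCGTGGGCG (EGR site) and TATAAA, and a match is a description of the letters and not a bound site. RefSeq entries were matched for 8 of the 10 genes, with 9 starts since ATF3 has more than 1, in windows from 250 bases before to 50 bases after the start. EGR1 held the CArG box at bases -105 to -96 and again at -83 to -74, whereas 1.29% of 35116 promoters of the same length held at least 1. JUND held TGACGTCA at -200 to -193, a motif found in 1.85% of all promoters. FOSL2 held TGACTCA, found in 4.95%, within its first transcribed bases. TATAAA lay at -33 to -28 in FOS, at -30 to -25 in FOSB and at -31 to -26 in JUNB, and it was also found at 1 ATF3 start, far from the start site at -230 to -225. It occurred in 11.5% of all promoters. GCGTGGGCG occurred in 0.795% of all promoters and in 0 of the 9 examined here.

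Values are normalized log2 signals of 1 probe, so a difference of 1 is a doubling, and a level is compared only with the same probe on another array. Of the 13 probes, 11 were well above background on 8 of 8 arrays. FOSB was well above background on 6 arrays. The single EGR3 probe was not well above background on any array, with values of 1.89 to 2.03, and it gives no level for that gene in either line. SEC23A, a target the study followed, cannot serve as an independent check of the transfections. The study chose it partly because it was lower with premiR-375 and higher with AntagomiR-375 on these arrays. Its signal was 11.04 and 11.35 on the ORI CTL arrays and 9.53 and 10.08 with premiR-375, and it was 9.55 and 9.68 on the TT CTL arrays and 10.24 and 10.29 with AntagomiR-375.

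**Figure D1:**
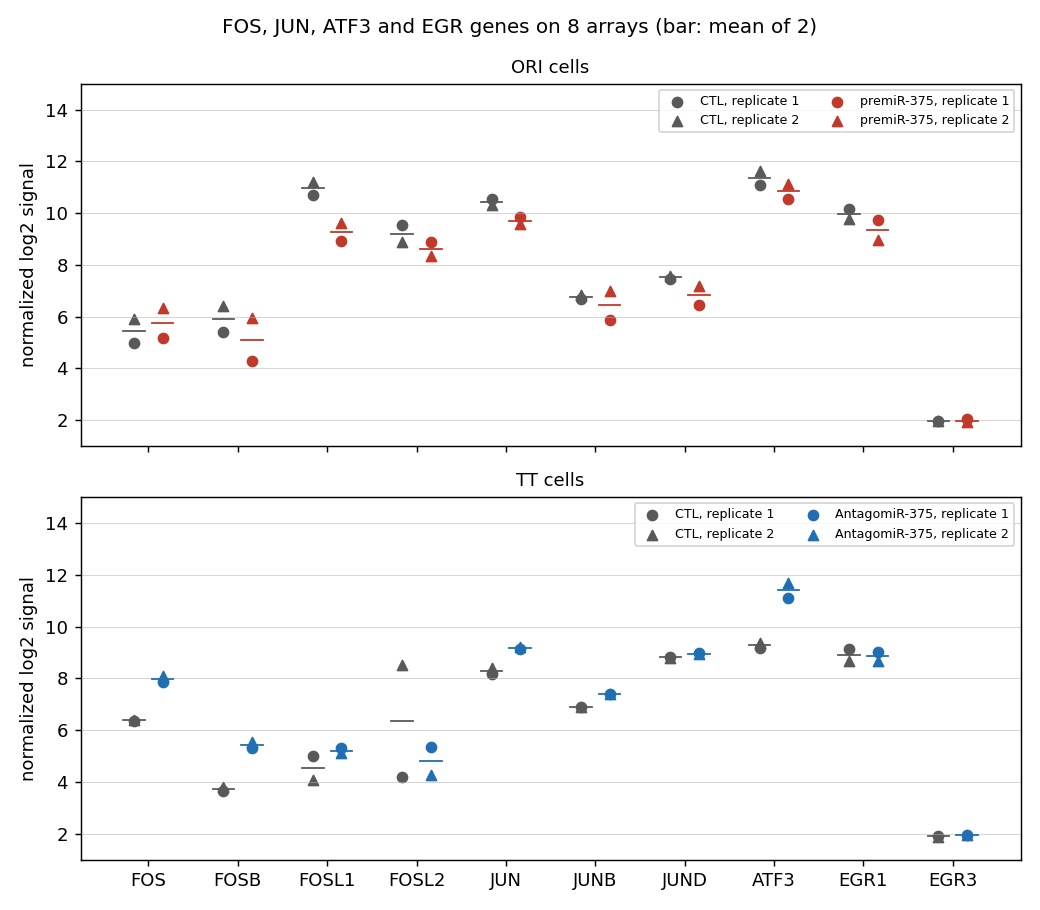
Normalized log2 signal of the probe that stands for each of the 10 genes, with ORI cells above and TT cells below; circles are replicate 1, triangles replicate 2 and bars the mean of 2 arrays. FOSL1 shows the largest gap in ORI cells (10.96 against 9.28), FOS, FOSB and ATF3 sit higher with AntagomiR-375 in TT cells, and EGR3 stays near 2 throughout; signals of different genes are not comparable with each other.

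In ORI cells with premiR-375, 7 of the 10 genes were lower than CTL in both replicate pairs, 1 was higher in both, and JUNB and EGR3 had no common direction. Over all genes on the array, 27.8% were lower in both pairs and 32.5% were higher. The median difference of the 10 genes was -0.61, against 0.0 for all 36328 genes compared. FOSL1 alone passed a size threshold, an average log2 signal of at least 6 and a log2 difference of at least 1, as the methods set for lower genes, with 1 direction in both pairs, which was added here. The condition on the adjusted p that the methods also set was not applied. Of the 10 genes, 7 were bright enough to be counted. Of all genes that bright, 3.19% passed it as lower and 1.78% as higher.

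FOSL1 encodes FRA-1, a FOS protein that lacks a strong activation domain and accumulates in cells with sustained ERK activity. Its signal was 10.71 and 11.21 on the CTL arrays and 8.93 and 9.63 on the premiR-375 arrays. All premiR-375 values lay below all CTL values, and the mean difference was -1.68, a 3.21-fold lower signal. The pairs differed by -1.79 and -1.58, while the SD within the groups was 0.35 for CTL and 0.5 for premiR-375 (n = 2 each). Over the 9 alternative ways of processing the difference stayed between -1.79 and -1.58.

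FOSL2, which encodes the related FRA-2, had signals of 9.53 and 8.89 with CTL and 8.88 and 8.34 with premiR-375, a difference of -0.60. The groups were separated by only 0.01 in log2, although the pairs moved alike, by -0.65 and -0.56. FOSB read 5.40 and 6.40 with CTL and 4.27 and 5.95 with premiR-375, a difference of -0.79 (-0.31 with normexp correction) with overlapping groups, and premiR-375 replicate 1 was not well above background. FOS itself was dim and went the other way, with 4.99 and 5.90 in CTL and 5.16 and 6.33 in premiR-375 cells. Its difference of +0.30 was smaller than the SD of either group, at 0.64 and 0.83, although the pairs gave 0.17 and 0.43. In ORI cells 3 genes of the FOS family were thus lower in both pairs. The small difference of the dim FOS probe does not settle whether FOS departed from them.

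Among the JUN genes, JUN, the main partner of FOS proteins, read 10.54 and 10.33 with CTL and 9.84 and 9.58 with premiR-375. The groups did not overlap, the pairs differed by -0.70 and -0.75, and the mean difference of -0.73 was a 1.65-fold lower signal. JUND, which is usually present without stimulation, read 7.45 and 7.58 against 6.47 and 7.17, a difference of -0.70 with pairs at -0.99 and -0.41. JUNB, a weaker activator than JUN, read 6.68 and 6.83 against 5.87 and 7.0. Its pairs differed by -0.82 and +0.17, so the mean of -0.32 had no stable sign and was within the SD of the premiR-375 arrays, 0.8.

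ATF3, a stress-induced factor that often represses its targets, read 11.07 and 11.62 with CTL and 10.55 and 11.12 with premiR-375 on its brightest probe. The groups overlapped, but the pairs differed by -0.52 and -0.50, for a mean of -0.51. EGR1, the best known EGR factor, read 10.17 and 9.77 with CTL and 9.75 and 8.95 with premiR-375. The difference was -0.62, the pairs gave -0.43 and -0.82, and the groups were 0.02 apart.

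Replicates agreed less in ORI than in TT cells, but part of the ORI spread was shared by CTL and premiR-375. The replicate differences of these groups correlated at 0.785 (0.33 for the TT groups), and a shared part cancels within pairs. The SDs that follow compare arrays of different slides, so they are not the spread of the pair differences above. Over 22221 probes the SD of the log2 difference between replicates was 0.572 for ORI CTL and 0.678 for premiR-375, against 0.357 and 0.358 in TT cells. Limma called 0 of 50594 probes in ORI cells at an adjusted p of 0.05, or 0.0% of those tested, with 7257 at an unadjusted p under 0.05, in a fit with 1 residual degree of freedom. The count was 517 with uncorrected median signals, 569 with the deposited log2 values, 1561 with normexp correction and 2478 in a fit of all 8 arrays.

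**Figure D2:**
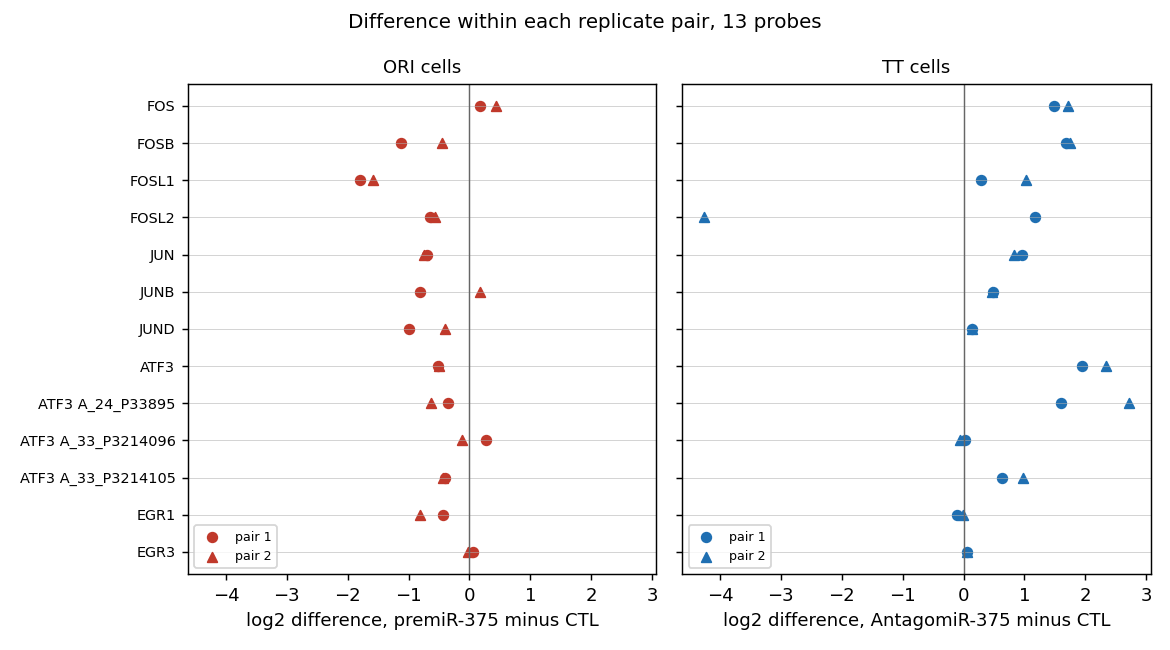
Log2 difference of each of the 13 probes within replicate pair 1 (circles) and pair 2 (triangles), for premiR-375 minus CTL in ORI cells (left) and AntagomiR-375 minus CTL in TT cells (right). In ORI cells FOSL1 lies farthest from 0, at -1.79 and -1.58; in TT cells FOS, FOSB and the brightest ATF3 probe lie between 1.48 and 2.34, and only FOSL2 splits widely, at 1.17 and -4.27.

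In TT cells with AntagomiR-375, 8 of the 10 genes were higher than CTL in both pairs, including the undetected EGR3, and EGR1 was lower by a small amount. Over all genes, 31.2% were higher and 30.9% lower in both pairs. The median difference was 0.57 for the 10 genes and 0.0 for all 36328. The methods set the size threshold in TT cells at a log2 difference of 0.6, and 3 genes passed it as higher (FOS, JUN and ATF3) of the 6 with an average signal of at least 6. Among all genes that bright, 2.85% passed it as higher and 1.47% as lower. Limma called 0 of 50587 probes at an adjusted p of 0.05, or 0.0%, with 4920 at an unadjusted p under 0.05.

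ATF3 had the largest difference. Its brightest probe read 9.19 and 9.36 on the CTL arrays and 11.12 and 11.70 with AntagomiR-375. The groups were far apart, with pair differences of 1.94 and 2.34 and a mean of +2.14, a 4.41-fold higher signal. On the same probe, the AntagomiR-375 arrays lay close to the ORI CTL arrays, at 11.07 and 11.62, whereas the TT CTL arrays lay below every ORI array.

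The 4 ATF3 probes did not give the same answer. In hg19 coordinates the brightest probe, A_23_P34915, lies at chr1:212793856-212793915 and A_24_P33895 at chr1:212792837-212792896. A_33_P3214105 lies upstream at chr1:212788502-212788561, and A_33_P3214096 at chr1:212792519-212792578. In TT cells A_24_P33895 read 4.91 and 4.02 with CTL and 6.51 and 6.74 with AntagomiR-375, a difference of +2.16 like that of the brightest probe. A_33_P3214105 read 7.25 and 7.44 against 7.88 and 8.42, a difference of +0.80. A_33_P3214096 read 7.40 and 7.98 against 7.41 and 7.92, a difference of -0.02. In ORI cells the same 3 probes differed by -0.49, -0.42 and +0.07. A_33_P3214096 thus varied little over the 8 arrays, between 7.40 and 8.02, while the other 3 had 1 direction in each line. The mean of all 4 probes gave +1.27 in TT cells instead of +2.14.

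**Figure D3:**
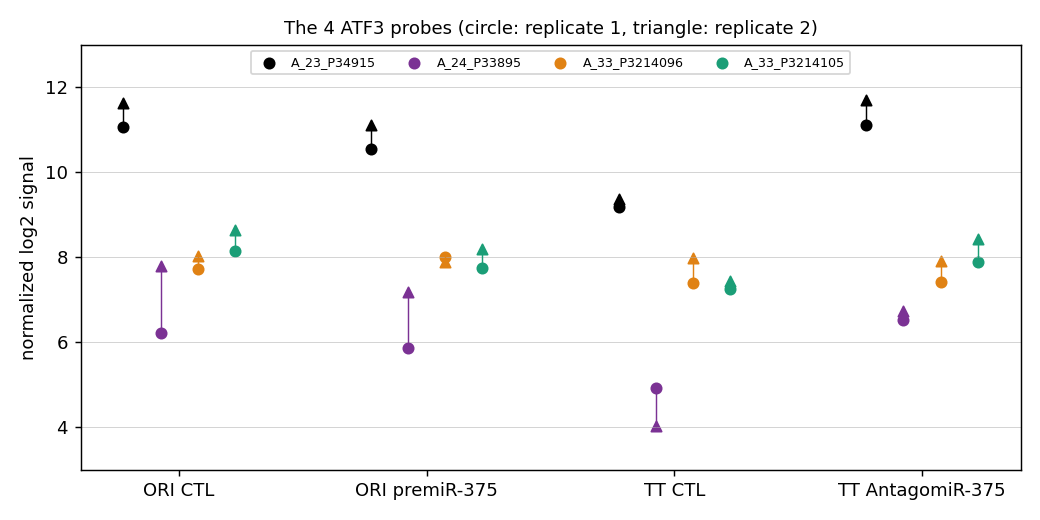
Normalized log2 signal of the 4 ATF3 probes in the 4 groups, with circles for replicate 1 and triangles for replicate 2, joined by a line. A_23_P34915 runs from 9.19 and 9.36 in TT CTL to 11.12 and 11.70 with AntagomiR-375, whereas A_33_P3214096 stays between 7.40 and 8.02 in every group; levels are comparable within a probe only.

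FOS, the gene that gives the family its name, read 6.37 and 6.39 with CTL and 7.85 and 8.11 with AntagomiR-375. The difference of +1.60, a 3.03-fold higher signal, was much larger than the SD of 0.02 and 0.18 within the groups, and the pairs gave 1.48 and 1.72. Its size depended on the background treatment and was 1.11 with normexp correction. FOSB read 3.65 and 3.80 with CTL and 5.32 and 5.55 with AntagomiR-375. The groups did not overlap and differed by +1.71, but CTL replicate 1 was not well above background, and the difference was 0.56 with normexp correction and 0.50 with uncorrected median signals.

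FOSL1 was dim in TT cells, with 5.02 and 4.08 in CTL and 5.30 and 5.11 with AntagomiR-375. Its pairs differed by 0.28 and 1.03, for a mean of +0.65 close to the SD of the CTL arrays, 0.66. That difference was 0.21 to 0.23 with normexp correction, uncorrected median signals and the deposited values. FOSL2 gave no usable difference there. Its signals were 4.19 and 8.52 with CTL and 5.35 and 4.26 with AntagomiR-375, so that CTL replicate 2 stood far above the other 3 arrays. On that array the spot was uneven, with a pixel SD of 67.4% of the mean, against 31.0% at the 99th percentile of spots well above background, and 8 bright pixels had been left out by the scanner software. The mean difference of -1.55 became +1.17 from replicate 1 alone.

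JUN read 8.18 and 8.40 with CTL and 9.15 and 9.23 with AntagomiR-375. The difference was +0.89, a 1.86-fold higher signal, with pairs at 0.96 and 0.83 and a range of 0.80 to 0.96 over the 9 alternatives. JUNB read 6.91 on both CTL arrays and 7.41 and 7.38 with AntagomiR-375, a difference of +0.48 that was under the size threshold. Its SD of 0.01 and 0.02 came from 2 arrays each. Over 22221 probes the SD of the log2 difference between replicates was 0.357 and 0.358 in TT cells. JUND moved least, from 8.84 and 8.80 to 8.98 and 8.94, a difference of +0.14 with both pairs at 0.14. The JUN genes thus kept the same direction in TT cells with differences of graded size. EGR1 did not share it, with 9.13 and 8.69 in CTL and 9.03 and 8.68 in AntagomiR-375 cells, and its difference of -0.05 was below the SD of 0.31 and 0.25.

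The comparisons in the 2 lines use different reagents and separate control arrays, and their difference was not tested. Side by side, FOSB, FOSL1, JUN, JUND and ATF3 were lower in both ORI pairs and higher in both TT pairs. Over all genes, 27.8% were lower in both ORI pairs and 31.2% higher in both TT pairs, and the share with both was not counted. In TT cells JUND rose by only +0.14, and the +0.65 of FOSL1 was close to the SD of its CTL arrays, 0.66. The TT difference of FOSB fell to 0.50 with uncorrected median signals. FOS was higher in both lines, by +0.30 and +1.60, and EGR1 was lower in both, by -0.62 and -0.05. The largest difference fell on another gene in each line, FOSL1 in ORI cells and ATF3 in TT cells.

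The control arrays show how the standing levels differ between the lines, before any change in miR-375. The same arrays are the controls of the comparisons above. TT CTL arrays were lower than ORI CTL arrays without overlap for 7 of the 10 genes, the undetected EGR3 included, and higher for 3. Over all genes the shares were 36.7% and 28.7%. The median difference was -1.57 for the 10 genes and -0.05 for all. At an average of at least 6 and a log2 difference of at least 1, 5 of 7 genes were lower and 1 was higher, where 20.1% and 19.2% of all genes that bright were. Of those lower, FOSL1 reached that average only through ORI CTL, with means of 10.96 there and 4.55 in TT CTL. FOSL2 read 4.19 and 8.52 in TT CTL, the latter on an uneven spot, and its count also rests on ORI CTL. Line, slide, RNA integrity, and the control reagent and its dose cannot be told apart in this comparison.

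FOSL1 showed the widest gap, with 10.71 and 11.21 in ORI CTL against 5.02 and 4.08 in TT CTL, a difference of -6.41 or 85.2-fold. With normexp correction it was -4.59. FOSL2 was lower by -2.86, a value that rests on the uneven TT CTL replicate 2 spot. Without that array the FOSL2 gap widened to -5.02. FOSB differed by -2.17, or by -0.77 with normexp correction. JUN, at 10.54 and 10.33 against 8.18 and 8.40, differed by -2.14, and ATF3, at 11.07 and 11.62 against 9.19 and 9.36, differed by -2.07. EGR1 was closer, at -1.06.

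JUND was the gene with a clearly higher signal in TT cells, with 8.84 and 8.80 against 7.45 and 7.58, a difference of +1.30. FOS was also higher, at 6.37 and 6.39 against 4.99 and 5.90, by +0.93, but by only 0.24 in the deposited log2 values. JUNB differed by +0.15, and its sign turned to -0.15 with quantile normalization within each line and to -0.18 with the deposited values. Those settings moved the median of all genes to -0.415 and -0.309, while JUND differed by +0.96 and +0.84 under them.

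Over the 4 groups, the order of the FOSL1 signals was ORI CTL, ORI premiR-375, TT AntagomiR-375 and TT CTL, with means of 10.96, 9.28, 5.20 and 4.55, and the last pair did not differ beyond their spread. For FOS the order was TT AntagomiR-375 (7.98), TT CTL (6.38), ORI premiR-375 (5.74) and ORI CTL (5.44), and the ORI groups overlapped. For JUN it was ORI CTL (10.44), ORI premiR-375 (9.71), TT AntagomiR-375 (9.19) and TT CTL (8.29), with no overlap between neighbours. For ATF3 it was TT AntagomiR-375 (11.41), ORI CTL (11.35), ORI premiR-375 (10.83) and TT CTL (9.27), and neighbours among the first 3 overlapped.

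The cells were checked against markers of the thyroid cell types. Of 5 C cell markers on the array, all were well above background in TT cells, and CALCA, which encodes calcitonin, reached 18.49 and 18.61 in CTL. Of 6 follicular markers, PAX8 was bright in ORI cells (10.73 and 10.62 in CTL), while the thyrotropin receptor gene TSHR and NKX2-1 were not well above background there and thyroglobulin (TG) was dim, at 4.72 and 5.02. NKX2-1 is also expressed by C cells and read 12.35 and 12.21 in TT CTL. TG was higher there too, at 9.13 on both TT CTL arrays, a difference of +4.26 (limma adjusted p = 0.00254). The summed follicular marker signal was 12.53 and 12.41 in TT CTL and 10.82 and 10.77 in ORI CTL, so this list did not mark ORI cells. Of the C cell markers, RET was well above background in ORI CTL, at 6.37 and 5.83. In the ORI comparison some markers moved with the treatment. The summed C cell marker signal was 6.95 and 6.48 (log2) in ORI CTL and 8.61 and 6.89 with premiR-375. CALCA read 3.91 and 3.57 against 8.12 and 4.51 on its brightest probe. The value of 8.12 on premiR-375 replicate 1 weighed most in the sum of 8.61. The other CALCA probes were not well above background on any ORI array. With premiR-375 A_24_P198178 read 1.76 and 2.37, and A_33_P3318771 read 2.49 and 2.37. CHGA, a granule protein gene, read 3.46 and 2.09 against 4.91 and 5.13, while CEACAM5 was not well above background on any ORI array. The summed signal of 5 leukocyte and endothelial markers was 9.50 and 8.83 in ORI CTL and 9.94 and 9.92 with premiR-375, and PECAM1 was not well above background. Their part in the ORI differences was not tested. In TT cells the C cell sum was 18.90 and 19.06 in CTL and 19.06 on both AntagomiR-375 arrays, a sum that CALCA carries. CEACAM5, an adhesion molecule gene, read 7.09 and 7.29 with CTL and 8.23 and 7.96 with AntagomiR-375, a difference of +0.90 (limma adjusted p = 0.512) that passed the size threshold. Its part in the TT differences was not tested. The leukocyte and endothelial sum was 9.40 and 9.58 against 9.29 and 9.25. In RNA of whole cultures, fewer cells of a type and less RNA per cell cannot be told apart.

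Other immediate early genes went in both directions. Of 28 such genes, 10 were higher and 12 lower in both ORI pairs, with a median difference of 0.05, where 32.5% and 27.8% of all genes were. In TT cells 16 were higher and 6 lower, with a median of 0.30, where 31.2% and 30.9% of all genes were. In ORI cells 21 were bright enough to be counted, and 2 passed the size threshold as higher and 2 as lower, where 1.78% and 3.19% of all genes that bright did. NR4A3, an orphan nuclear receptor, read 5.96 and 6.05 with CTL and 8.15 and 7.96 with premiR-375, a difference of +2.05 ± 0.125 (SE, limma adjusted p = 0.318). Only 1 of the 4 ORI arrays showed the other NR4A3 probe well above background, and the mean of both probes did not pass the threshold, which left 1 gene higher. BTG2, an antiproliferative p53 target, differed by +1.36. CTGF, a matricellular protein gene and target of YAP, differed by -1.82 and PLK2, a polo-like kinase, by -1.34.

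In TT cells 20 were bright enough to be counted, and 6 passed the threshold as higher and 0 as lower, where 2.85% and 1.47% of all genes that bright did. The count of 6 was 5 under most alternatives. NR4A3 was again the highest, at 5.39 and 5.69 with CTL and 7.65 and 7.87 with AntagomiR-375, a difference of +2.22 ± 0.0869 (SE, limma adjusted p = 0.512). The other probe was dim on all 4 arrays, and with the mean of both the difference was +1.26 and NR4A3 did not pass the threshold. ID1, an inhibitor of basic helix-loop-helix factors, differed by +1.51 and GADD45B, a stress gene, by +1.12. No gene of this list passed the limma test in either line.

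Between the control arrays limma called 13.6% of all genes higher and 12.7% lower in TT cells, and of the 28 it called 3 higher and 8 lower. BTG2 was higher by +3.91 ± 0.184 (SE, limma adjusted p = 0.00344). CYR61, a matricellular gene, read 14.84 and 15.28 in ORI CTL and was not well above background in TT CTL, at least 9560-fold lower (limma adjusted p = 0.00125). SGK1, a kinase gene, was lower by -4.09 and GADD45B by -3.82. Limma called 13029 of 50584 probes (25.8%) with all 4 control arrays. A fit without 1 array leaves 1 array in a group, so only its differences are given. Without TT CTL replicate 1 they were +3.93 for BTG2, -13.3 for CYR61, -3.95 for SGK1 and -3.84 for GADD45B. Without TT CTL replicate 2 they were +3.9, -13.27, -4.24 and -3.81 in the same order.

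**Figure D4:**
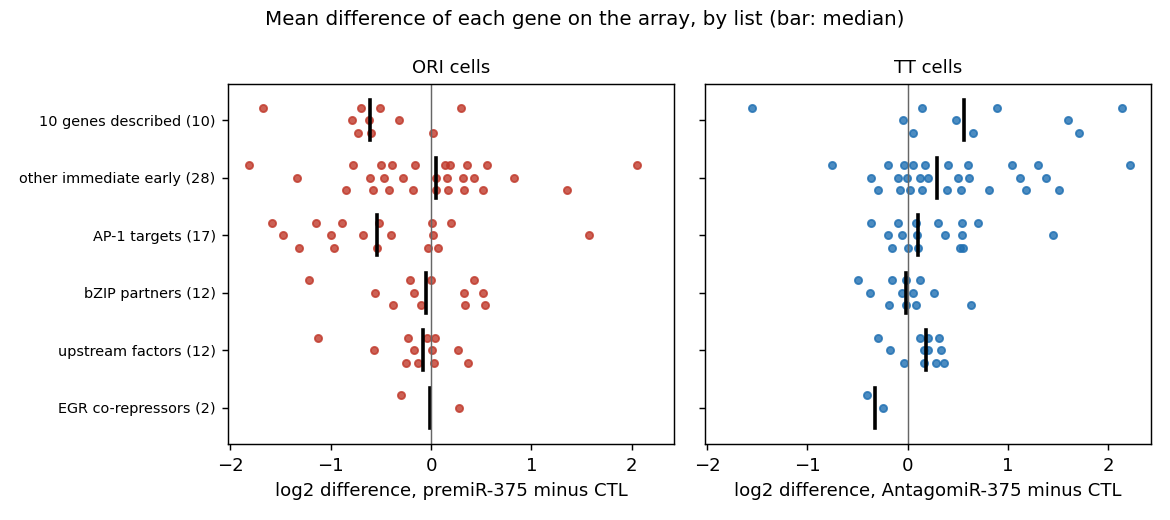
Mean log2 difference of each gene in the 10 genes described and in 5 other lists, for premiR-375 minus CTL in ORI cells (left) and AntagomiR-375 minus CTL in TT cells (right), with the number of genes in brackets and a bar at the median. The medians of the 10 genes are -0.61 and 0.57, those of the other immediate early genes 0.05 and 0.30, and those of the AP-1 targets -0.54 and 0.10.

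Genes that AP-1 is known to drive were counted as well, 17 of them on the array. In ORI cells 11 were lower and 4 higher in both pairs, with a median of -0.54, where 27.8% and 32.5% of all genes were. Of 15 bright enough, 4 passed the size threshold as lower and 1 as higher, against 3.19% and 1.78% of all genes that bright. PLAU, the urokinase gene, differed by -1.48 and VEGFA, the angiogenic growth factor, by -1.32. MMP3, a matrix protease, differed by +1.57 but fell under the threshold with normexp correction (0.87) and uncorrected median signals (0.97). The smallest adjusted p of the list was 0.318 (limma).

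In TT cells 10 targets were higher and 4 lower in both pairs, with a median of 0.10, where 31.2% and 30.9% of all genes were. Of the targets, 10 were bright enough to be counted. Among all genes that bright, 2.85% passed the threshold as higher and 1.47% as lower. IL6, a cytokine, alone passed the threshold, at 6.38 and 6.42 with CTL and 7.05 and 7.14 with AntagomiR-375, a difference of +0.70 (limma adjusted p = 0.512). It did not pass with normexp correction (0.44), uncorrected median signals (0.51), the deposited values (0.50) or the mean of its probes (0.10), and 4 targets passed without replicate 2. Between the control arrays limma called 10 targets lower in TT cells and 1 higher, where it called 12.7% and 13.6% of all genes. CD44, a hyaluronan receptor, was lower by -9.17 ± 0.272 (SE, limma adjusted p = 0.00175) on its brightest probe. Its other probe, well above background on all 4 control arrays, differed by -0.05, and the mean of both differed by -4.61. PLAU was lower by -6.04, while MMP9, a gelatinase, was higher by +1.21.

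Other leucine zipper partners of AP-1 had medians near 0. Of 12 other basic leucine zipper genes, 4 were higher and 6 lower in both ORI pairs (median -0.05), where 32.5% and 27.8% of all genes were. In TT cells 5 were higher and 5 lower (median -0.02), where 31.2% and 30.9% of all genes were. In ORI cells 11 were bright enough to be counted, and 3.19% of all genes that bright passed the size threshold as lower. CREB5 was the only one past the threshold in these comparisons, in ORI cells, at 9.03 and 9.31 with CTL and 7.66 and 8.23 with premiR-375, a difference of -1.22 (limma adjusted p = 0.318). In the control arrays BATF2 was higher in TT cells by +1.65 and MAF by +1.16, and JDP2, which competes with FOS proteins for JUN, was lower by -2.33 (limma adjusted p = 0.0251).

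Of 12 genes upstream of immediate early transcription, among them SRF, its ELK and MKL partners, CREB1 and MAP kinases, 2 were higher and 5 lower in both ORI pairs (median -0.09). Over all genes the shares were 32.5% and 27.8%. In ORI cells 11 were bright enough to be counted, and 3.19% of all genes that bright passed the size threshold as lower. ELK3, a ternary complex factor, differed by -1.13 (limma adjusted p = 0.377). It passed the threshold, but not with normexp correction (-0.74), uncorrected median signals (-0.75), the deposited values (-0.78) or without replicate 1 (-0.71). In TT cells 7 were higher and 2 lower (median 0.18), where 31.2% and 30.9% of all genes were, with values from -0.29 to 0.36. SRF itself read 5.31 and 6.08 with CTL and 6.08 and 5.98 with AntagomiR-375 and showed no common direction. MKL1 was lower in TT CTL than in ORI CTL by -1.12 and MKL2 higher by +1.12 (limma adjusted p = 0.0177 and 0.0282), each on its brightest probe. Their other probes, well above background on all 4 control arrays, differed by -0.62 and +0.39. With the mean of all probes the differences were -0.87 and +0.75, and neither passed the size threshold. SRF differed by -1.31 there (limma adjusted p = 0.236). The EGR co-repressors NAB1 and NAB2 differed by -0.25 and -0.40 in TT cells and by +0.28 and -0.30 in ORI cells, and NAB2 was higher in TT CTL by +1.16 (limma adjusted p = 0.0178).

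The genes whose signal most resembled those of FOS, JUN, ATF3 and EGR1 were found by Pearson r over the 8 arrays, after each line was centred on its own mean, among about 14009 genes with an average of at least 6 in both lines. The arrays share 4 slides and 2 lines, so r describes these arrays only. For FOS they were BCAP29 (r = 0.984), THC2520324 (0.982) and VMA21 (0.979). For JUN they were MRPL19 (0.978), C2CD3 (0.976) and CCDC86 (0.973). For ATF3 they were CXCL2 (0.99), COMMD10 (0.989) and UMPS (0.987). For EGR1 they included SNORA43 (0.995) and ARIH1 (0.986). CXCL2, a chemokine gene, differed by -0.75 in ORI cells and by +2.76 in TT cells, next to -0.51 and +2.14 for ATF3. Among the 10 genes, ATF3 was most like FOSB (r = 0.904) and FOS (0.876), and EGR1 had an r of -0.514 with FOS.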

How the data were processed

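For each array the authors deposited Feature Extraction 10.10.1.1 output with processed, mean, median and background intensity per spot, not normalized between arrays. The authors also deposited 1 table of log2 values, which followed the log2 median signal of each array (r of at least 0.9978). Columns of that table were used as an alternative only. The labels name polyA RNA and the methods total RNA.

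Processed intensity was converted to log2, control and outlier spots (341 to 428 per array) were left out, spots of a probe were averaged, and quantile normalization ran over the 8 arrays together (limma 3.58.1, R 4.3.3). From 32071 to 37340 spots per array were well above background and 0 were saturated; 2 arrays per group limit the precision. Each line was fitted with the replicate number as a block, since equal numbers share a slide (replicate differences of the groups correlated at 0.785 in ORI and 0.33 in TT cells), and the 4 control arrays without it. P-values of all probes in a fit were adjusted together (Benjamini-Hochberg). Only the limma fit was tried on simulated log2 values, whose spread was not taken from these arrays. The steps before it and the size threshold were not tested in that way. The probe with the highest average over 8 arrays stood for a gene. Of the other lists, up to 3 genes with the largest difference in each direction among those past the size threshold were named (some genes that met a naming rule are not reported here), and the values of ORI and TT genes past it are not calls. The 10 genes, the lists and the motifs were chosen with earlier results of these data known. Probe positions are on hg19 as in the file headers, and promoters are on GRCh38.p14. Alternatives were other normalization, background correction, signal, probe averaging, a filter on dim probes, no block, all 8 arrays in 1 fit, and each replicate left out. Protein sequences were not analysed here.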

Additional observations from a re-analysis of the deposited data

How the results depend on the processing

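With 2 arrays per group the fits rest on 1 residual degree of freedom per line, so a difference can be described but rarely called. Of 89 alternative values for the 10 genes in ORI cells 15 moved by more than the spread between replicates, taken as the SD of the 2 pair differences. In TT cells 20 of 89 did so, and between the control arrays 21 of 109, against the pooled SD within the groups. Genes with 1 direction in both pairs, or without overlap, kept their sign in ORI cells and changed it in 2 values in TT cells and 3 between the controls. These were EGR3 in TT cells, at -0.07 with uncorrected median signals and with the deposited log2 values, EGR3 between the controls, at 0.01 with normexp correction, and JUNB between the controls, at -0.15 with quantile normalization within each line and -0.18 with the deposited values. Of the genes without a common direction, JUNB in ORI cells went from -0.32 to 0.17 without replicate 1, FOSL2 in TT cells from -1.55 to 1.17 without replicate 2, and EGR3 in ORI cells from 0.02 to as low as -0.10. EGR3 was not well above background on any array. The other causes were not tested.

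Without the replicate block limma called 0 probes in ORI and 0 in TT cells, as with it, so no call of these fits changed with the pairing. In ORI cells limma called 2478 probes with all 8 arrays in 1 fit and the slide as a random block, 569 with the deposited values, 517 with uncorrected median signals and 1561 with normexp correction, and 565 to 1021 with 1 pair left out, where the lone arrays were assumed to vary like the TT arrays. In TT cells it called 3 with all 8 arrays and 10 with uncorrected median signals. Between the controls it called 19643 with the deposited values and 21684 with quantile normalization within each line, against 13029, and 0 to 11433 with 1 array left out.

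Counts past the size threshold that moved by more than 1.5 times were as follows. (The AP-1 targets lower in ORI cells, 4 as reported, ran from 4 to 6 and the other immediate early genes higher in TT cells, 6 as reported, from 5 to 6.) In ORI cells normexp correction and uncorrected median signals left 0 upstream factors lower and 0 AP-1 targets higher (1 each as reported), the deposited values left 0 upstream factors lower, and the mean of all probes left 1 other immediate early gene higher in place of 2. In TT cells normexp correction, uncorrected median signals and the deposited values left 0 AP-1 targets higher. Leaving out 1 pair gave 0 to 1 upstream factors lower and 0 to 1 leucine zipper partners higher in ORI cells, and in TT cells 1 to 4 AP-1 targets higher, 0 to 1 of the 10 genes lower (FOSL2, without replicate 1) and 0 to 1 leucine zipper partners lower.

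Between the controls, the 75th percentile, normexp correction, uncorrected median signals and the deposited values each gave 2 leucine zipper partners lower in place of 1. Quantile normalization within each line and the deposited values left 0 of the 10 genes higher (JUND fell under the threshold), 0 upstream factors, 0 AP-1 targets and 0 EGR co-repressors higher, and gave 4 upstream factors lower. The former gave 11 other immediate early genes lower. The latter gave 11 AP-1 targets lower, 2 immediate early genes higher and 1 leucine zipper partner higher. Normexp correction and uncorrected median signals gave 2 immediate early genes higher, 1 upstream factor lower and 0 AP-1 targets higher, and the mean of all probes gave 0 upstream factors higher and 1 lower. With 1 array left out the counts were 0 to 1 AP-1 targets higher, 1 to 2 upstream factors higher, 1 to 3 lower, and 1 to 2 leucine zipper partners lower.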
